A study of Mus musculus with 12 samples.

Results

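The cytosolic ribosomal protein genes were taken as every protein-coding row whose symbol is Rpl or Rps followed by a number, Rplp0 to Rplp2 or Rpsa. The ribosomal S6 kinases and pseudogene names were left out. The rule found 87 genes among 55487 features, 52 of the large subunit by name and 35 of the small subunit. Of these 87, 83 passed the filter on low values and entered the fit with 12364 genes in all. A pair of the names, Rps19bp1 and Rpl7l1, do not belong to proteins of the finished ribosome. In addition, 9 members, Rpl7l1 among them, were listed as paralogs of another member. Counts are therefore also given for the 77 members without these 10 genes.

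The ribosome is built from ribosomal RNA (rRNA) and one copy of most of the proteins listed here, a small subunit that reads the mRNA and a large subunit that joins the amino acids. Many ribosomal protein mRNAs begin with a run of pyrimidines, the TOP (terminal oligopyrimidine) motif, through which the mTOR kinase and the RNA-binding protein Larp1 control their translation. Resting lymphocytes make few ribosomes and enlarge when activated, and assembly of new subunits needs nucleolar factors that are not part of the finished ribosome.

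RNA was measured in mouse natural killer (NK) cells with the genotype mut/mut, from the strain B6.129S4-Ifngtm3.1Lky/J, in which YFP, a yellow fluorescent protein, reports on interferon gamma. Every group carried this reporter and was labelled HD IL-15, a priming cytokine. There were 4 samples in each of 3 groups: unstimulated cells, and cells given anti-NK1.1, an antibody to an activating surface receptor, for 6 h and separated as YFP- or YFP+. The labels give no age, and each group has replicates named f2, m2, m3 and m4, which no label ties to the same mouse. P-values measure the spread between these samples.

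Library totals ran from 32.1 to 54.2 M reads, so 3 reads corresponded to 0.0553 to 0.0933 CPM (counts per 1000000 reads of the library), which covers counting error only. All 8 NK cell markers exceeded 1 CPM in every group. Among 5 T cell markers, Cd3d and Cd3g exceeded 1 CPM in every group, and the summed level of the list was 45.8 to 105 CPM without stimulation, 39.7 to 62.7 CPM for YFP- and 22.5 to 45.8 CPM for YFP+ samples. Of 4 B cell markers only Cd79b, and of 5 myeloid markers only Cd14, exceeded a mean of 1 CPM in any group. The summed erythroid markers stayed at or below 0.326 CPM in all 12 samples. The part of these other markers in the results below was not tested.

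Of the 87 members, 67 had a promoter entry in RefSeq (GRCm38.p6). The longest run of C or T on the gene's strand within 50 bases on either side of the annotated start was at least 8 bases in 54 of 67 members (80.6%), against 36.44% of the 8704 tested genes with an entry. A run of at least 10 bases was found in 67.16% of members and 19.62% of those genes. The windows below are shown because they belong to the members that moved most, to their partners, and to the name matches that are not ribosomal proteins. Each is 30 bases, 5′ to 3′, and capitals mark the longest run of C or T.
Rpl5: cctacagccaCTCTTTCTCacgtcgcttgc
Rpl11: cggaagTCTCCCTCTCTCTTCCTgttctcc
Rpl4: agcgtggCCTTCTCCTCTCCCCgtcatggt
Rpl10: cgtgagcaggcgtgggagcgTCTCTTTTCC
Rpl22: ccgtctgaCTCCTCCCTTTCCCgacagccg
Rpl22l1: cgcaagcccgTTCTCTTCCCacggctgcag
Rps27l: cccgcctccaCTCCTCTCCactcctccccg
Rpl36al: gctctgttcgTCCCTTTCCTgttcggcgcg
Rpl7l1: gtcgaggcgggCCTCTCTaccccgcccggt
Rps19bp1: ctcctgctccagTTTCTgccgaggagcgaa

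These windows lie at chr5:107900498-107900527 on the plus strand for Rpl5, chr4:136053357-136053386 on the minus strand for Rpl11 and chr9:64173406-64173435 on the plus strand for Rpl4. Those of Rpl10 and Rpl22 are at chrX:74270836-74270865 and chr4:152325679-152325708, both on the plus strand. The paralogs Rpl22l1, Rps27l and Rpl36al have theirs at chr3:28805499-28805528 (plus), chr9:66946054-66946083 (plus) and chr12:69184020-69184049 (minus). The run was 9 bases in Rpl5 and Rps27l, 17 in Rpl11 and 15 in Rpl4. It was 7 bases in Rpl7l1 (chr17:46782670-46782699, minus) and 5 in Rps19bp1 (chr15:80264328-80264357, minus), which were listed as name matches that are not ribosomal proteins. A run of C or T is a description of these letters and not a mapped start of the mRNA in these cells.

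The share of the library on the 87 genes was higher in every stimulated sample than in any unstimulated one, and the groups overlapped once rRNA-like reads were left out. Member reads made up 8.75%, 9.37%, 9.03% and 9.42% of the unstimulated libraries f2, m2, m3 and m4. In YFP- samples the shares were 9.95%, 9.76%, 10.0% and 11.7%, and in YFP+ samples 10.3%, 9.76%, 10.7% and 10.5%. The means were 9.14 ± 0.313% (SD, n = 4), 10.4 ± 0.905% and 10.3 ± 0.401%, so the stimulated groups did not overlap the unstimulated one and overlapped each other.

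Reads on 359 rRNA-like features took 27.4 to 35.3% of unstimulated, 15.9 to 30.3% of YFP- and 13.7 to 29.8% of YFP+ libraries. These are rRNA genes and 3 features, Lars2, Mir6236 and Gm23935, assumed to collect such reads, which was not tested. As a share of the remaining reads, members held 13.2 ± 0.906% (SD, n = 4) without stimulation, 13.2 ± 1.51% for YFP- and 13.1 ± 1.66% for YFP+ samples, and all 3 groups overlapped. With only the rRNA genes left out, the shares were 10.6 ± 0.377%, 11.7 ± 1.22% and 11.3 ± 0.955%, and the groups overlapped too. The YFP- library m4 was the highest of its group at 11.7%. Small-subunit reads were 0.740 ± 0.0120 of large-subunit reads without stimulation, 0.728 ± 0.0201 for YFP- and 0.731 ± 0.0353 for YFP+ samples (SD, n = 4), with all groups overlapping. Bulk RNA cannot tell fewer transcripts per cell from fewer cells that make them.

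**Figure D1:**
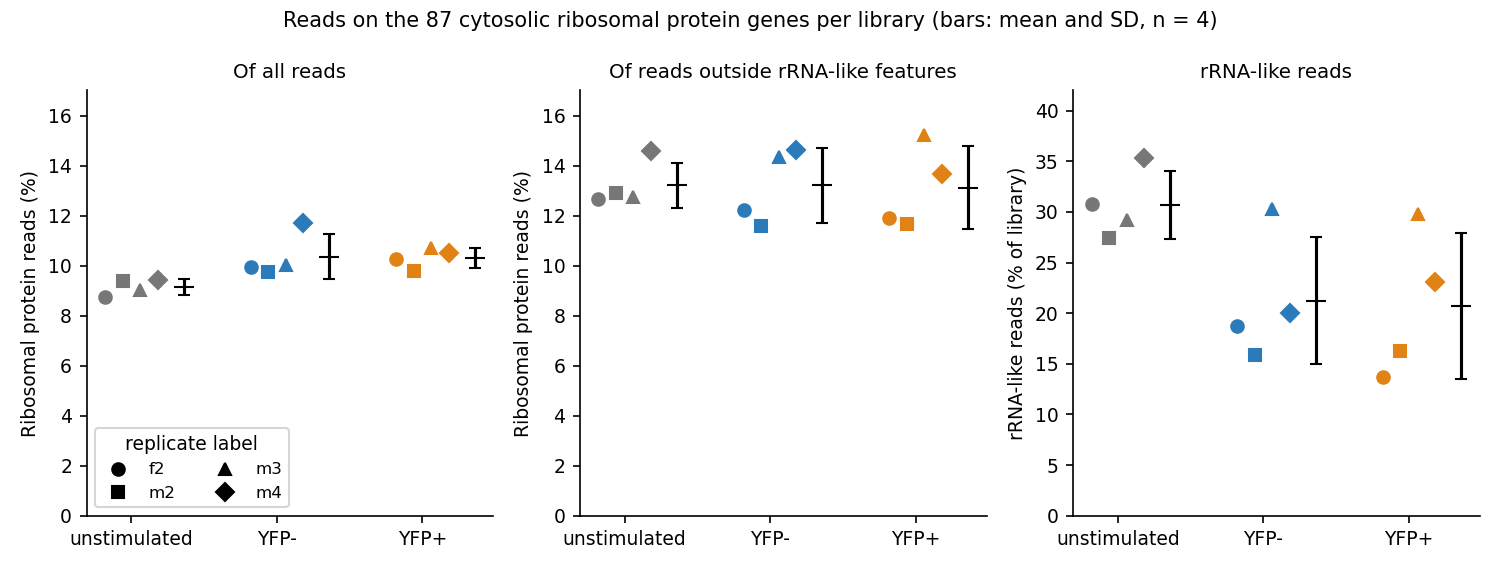
Percent of reads on the 87 genes in each library, of all reads (left) and of reads outside rRNA-like features (middle), and percent of rRNA-like reads (right). Points are libraries, with marker shapes for the replicate labels, and bars are the mean and SD of 4. The stimulated libraries lie above the unstimulated ones on the left and overlap them in the middle panel.

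Levels per length spanned the set widely. In CPM per kb of transcript, averaged over the 3 groups, the highest members were Rpl13 at 6885, Rpl32 at 5524, Rps14 at 5281, Rps18 at 4992 and Rplp0 at 3914. The lowest tested members were Rps10 at 10.6, Rpl24 at 13.7, Rpl36al at 27.6, Rpl13a at 40.0 and Rps19bp1 at 42.4. Rps10, Rpl24, Rpl36al and Rpl13a share 91.57%, 71.49%, 63.12% and 59.31% of their exon bases with another gene on the same strand in GENCODE M21, and no other member shares more than 10.7%. These overlapping genes, Gm49804, Gm28037, Gm49383 and Gm45713, were listed at 0 reads in all 12 libraries. How reads shared by overlapping genes were counted is not given in the sources used here, so the levels of these 4 members are uncertain.

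Rpl10l, Rpl3l, Rpl39l and Rps23rg1 did not pass the filter. Rpl10l, Rpl3l and Rpl39l are paralogs of Rpl10, Rpl3 and Rpl39, and Rpl10l and Rpl3l are known from testis and from muscle. Rps23rg1 was listed with Rps23 as its parent, but their coding sequences are only 45.77% identical. Its exons overlap the pseudogene Rps23-ps2 on the opposite strand over 35.64% of their bases. Whether Rps23rg1 encodes a ribosomal protein was not tested. Rpl10l had 2 reads in 1 library and 0 in the others, Rpl3l had at most 4 reads, Rps23rg1 at most 3, and Rpl39l between 0 and 18. No other member had a log2 CPM at or below 0 in any library, so none stood near the edge of the filter.

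Comparing YFP- with unstimulated cells asks how ribosomal protein transcripts differ after stimulation in cells that were negative for the reporter. In the fit on deposited values, 20 of 83 members rose and 0 fell, where 51.1% of all 12364 genes were called, 30.2% higher and 20.9% lower. The median log2 difference of the members was 0.15 and that of all genes 0.14, and the members ranged from -0.27 to 1.55, a spread (SD across genes) of 0.26 against 1.12 for all genes. Without the paralogs and name matches, 17 of 77 rose. With totals that leave out the rRNA-like features, 5 rose and 1 fell (52.7% of all genes called) and the member median was -0.03. Trimmed-mean scaling gave 5 higher and 0 lower (53.2% of all genes) and a median of 0.01. With replicates labelled m2 left out of every group 8 were called (40.2% of all genes), and without those labelled m4 9 were called (38.2% of all genes).

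Comparing YFP+ with unstimulated cells asks the same for cells that were positive for it, against the same 4 control libraries. Here 27 of 83 members rose and 1, Rpl10, fell, where 60.8% of all genes were called, 27.5% higher and 33.3% lower. The member median was 0.15, against -0.03 for all genes. Mitochondrially encoded genes took 0.364 ± 0.0427% (SD, n = 4) of YFP+ libraries, all below the others, against 0.800 ± 0.164% without stimulation and 0.790 ± 0.109% for YFP-, and the part of this shift in the results was not tested. Without the paralogs and name matches, 22 of 77 rose and 1 fell. Totals without rRNA-like features gave 7 higher and 3 lower (62.8% of all genes) and a member median of -0.04, whereas trimmed-mean scaling gave 28 higher and 0 lower (63.7% of all genes) and a median of 0.23. On deposited values the member median lay 0.17 above the median of all genes in this comparison, 0.01 above it in YFP- against unstimulated and 0.24 above it in YFP+ against YFP-, an offset that scaling whole libraries cannot change. Under quantile normalization, which can change it, the offsets were -0.049, -0.025 and 0.039 in the same order.

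**Figure D2:**
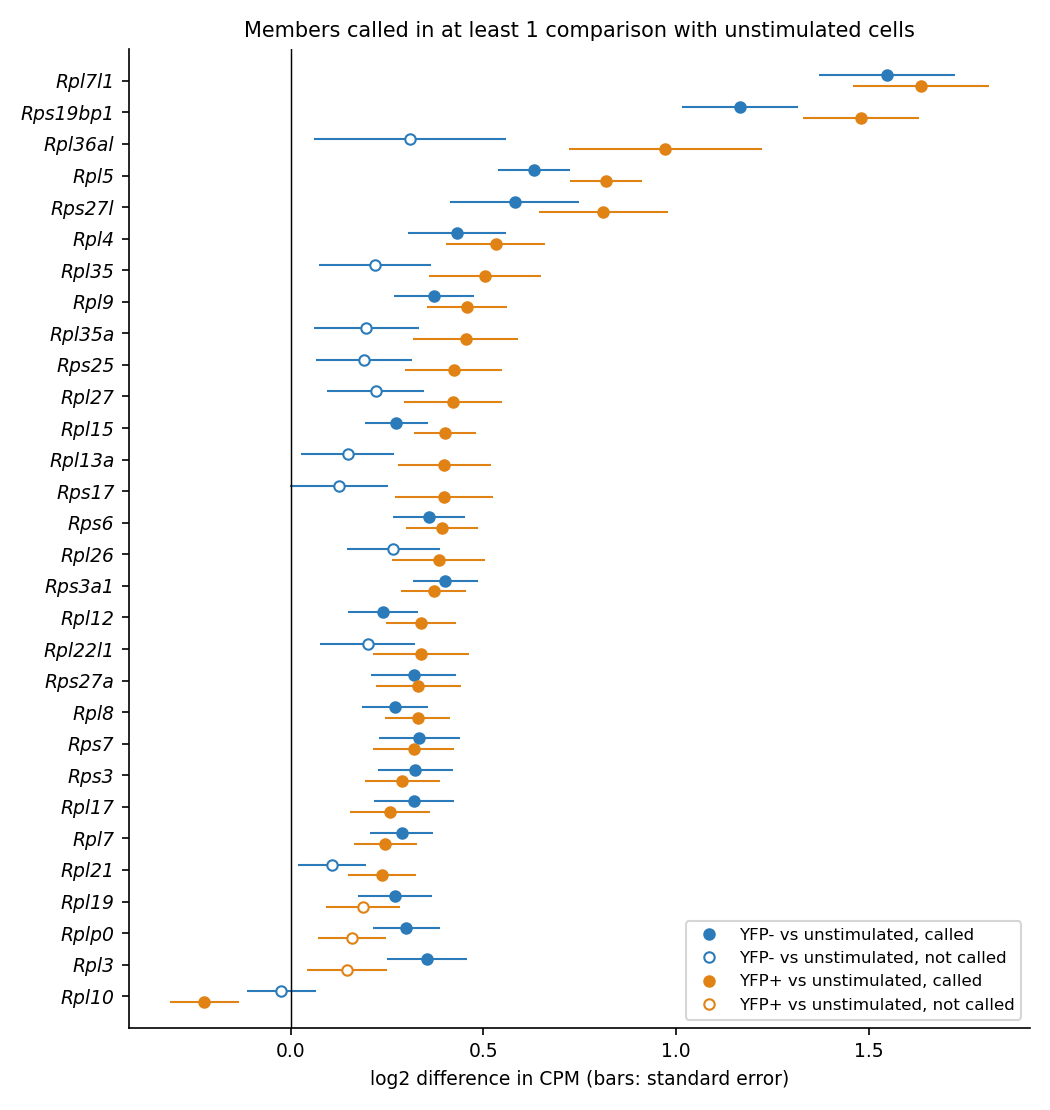
Log2 difference in CPM, with its standard error, of 30 of the 31 members called in at least 1 comparison with unstimulated cells. Filled points passed an adjusted p of 0.05. Rpl7l1 and Rps19bp1 lie above 1 in both comparisons, and Rpl10 is the one member below 0 that was called.

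The largest rises were in the name matches that are not ribosomal proteins. Rpl7l1, a relative of Rpl7 found in maturing large subunits, was at 92.1, 81.8, 89.5 and 63.7 CPM in unstimulated samples f2, m2, m3 and m4. It was at 238, 242, 205 and 266 CPM in YFP- and 311, 282, 175 and 262 CPM in YFP+ samples. Every stimulated library was above every unstimulated one, and the log2 differences were 1.55 ± 0.18 (SE, adjusted p = 1.11e-05) in YFP- and 1.64 ± 0.18 (adjusted p = 2.86e-06) in YFP+. Rps19bp1, a nucleolar protein that binds Rps19, was at 16.3, 19.0, 19.5 and 15.5 CPM without stimulation, at 43.0, 36.8, 38.4 and 39.3 in YFP- and at 37.1, 48.4, 59.3 and 53.5 in YFP+ samples. Its stimulated groups did not overlap the unstimulated one either, with log2 differences of 1.17 ± 0.15 (adjusted p = 3.15e-05) and 1.48 ± 0.15 (adjusted p = 1.65e-06). Both genes were called in both comparisons under all 16 other settings tried.

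Among the 77 members without paralogs and name matches, Rpl5 had the largest rise in both comparisons. Rpl5 and Rpl11 bind 5S rRNA as a particle that, outside the ribosome, can bind Mdm2, the inhibitor of p53. Rpl5 was at 678, 680, 706 and 603 CPM without stimulation, at 968, 1046, 982 and 1141 in YFP- and at 1258, 1194, 1073 and 1175 in YFP+ samples, so neither stimulated group overlapped the unstimulated one. The log2 difference was 0.63 ± 0.09 (adjusted p = 9.59e-05) in YFP- and 0.82 ± 0.09 (adjusted p = 5.11e-06) in YFP+, and both were called under all 16 other settings. Its partner Rpl11 was at 736 to 846 CPM without stimulation, at 810 to 1032 in YFP- and at 774 to 936 in YFP+ samples. These groups overlapped, and the differences of 0.11 ± 0.11 (adjusted p = 0.401) and 0.08 ± 0.11 (adjusted p = 0.553) were not called. The exons of Rpl5 overlap Dipk1a on the opposite strand over 46.6% of their bases, and Dipk1a averaged 10.0 CPM without stimulation, 6.81 CPM for YFP- and 2.05 CPM for YFP+ samples. No source used here says that strand was kept, so reads of the overlap cannot be assigned to one of them.

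Rpl4, a core protein of the large subunit, was at 2497, 2433, 2280 and 2282 CPM without stimulation, at 3503, 3283, 2804 and 3244 in YFP- and at 4246, 3518, 2622 and 3528 in YFP+ samples. All stimulated libraries exceeded the unstimulated ones, by 0.43 ± 0.13 (adjusted p = 0.0125) and 0.53 ± 0.13 (adjusted p = 0.0026) on the log2 scale. It kept the call in 11 of 16 other settings in YFP- and in 15 of 16 in YFP+.

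Rpl10, which joins the large subunit at a late step in the cytoplasm, was at 1802, 1614, 1637 and 1819 CPM without stimulation, at 1661, 1677, 1631 and 1782 in YFP- and at 1632, 1413, 1512 and 1334 in YFP+ samples. The YFP+ values overlapped the unstimulated ones through f2, and the difference fell by 0.22 ± 0.09 on the log2 scale (adjusted p = 0.0432), a call kept in 7 of 16 other settings. In YFP- the difference was -0.02 ± 0.09 (adjusted p = 0.84). Windows of 150 bases along the Rpl10 transcript recur in transcripts of other genes for 90.92% of positions, which makes its count uncertain. The same limit holds for Rpl5 (45.83%), Rpl11 (49.56%), Rpl3 (70.97%), Rpl36a (81.14%) and Rpl36al (53.58%). Such windows covered 20.84% of Rpl22l1, 8.38% of Rpl7, 7.36% of Rplp0, 0.07% of Rpl4 and 0% of Rpl7l1 and Rps19bp1.

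Of the 3 proteins of the acidic stalk, where translation factors dock, 1 was called in YFP- and 0 in YFP+. Among all tested genes 51.1% and 60.8% were called. Rplp0, its base, was at 4591 to 4892 CPM without stimulation, at 5413 to 6383 in YFP- and at 4960 to 6045 in YFP+ samples. The difference was 0.30 ± 0.09 (adjusted p = 0.0113) in YFP-, kept in 9 of 16 other settings, and 0.16 ± 0.09 (adjusted p = 0.131) in YFP+. Rplp1 and Rplp2, the proteins bound to it, had differences from -0.10 to -0.03 in both comparisons and were not called.

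Paralogs are given beside their parents. Rps27l, a paralog of Rps27 known as a p53 target, was at 91.2, 126, 116 and 89.6 CPM without stimulation, at 151, 133, 147 and 203 in YFP- and at 154, 166, 207 and 215 in YFP+ samples. Neither stimulated group overlapped the unstimulated one, at 0.58 ± 0.17 (adjusted p = 0.0103, kept in 9 of 16 other settings) and 0.81 ± 0.17 (adjusted p = 0.000808, kept in all 16). Rps27 itself was at 411 to 568 CPM without stimulation, at 428 to 672 in YFP- and at 359 to 665 in YFP+ samples, with differences of 0.07 ± 0.20 and 0.00 ± 0.20 that were not called. The coding sequences of Rps27 and Rps27l are 76.19% identical and no window of 150 bases of Rps27l recurs elsewhere. Rps27 and Rps27rt are 100% identical in coding sequence, and 97.96% and 87.11% of such windows in their transcripts recur in other genes, so how reads were divided between them is uncertain. Rps27rt was not called in any comparison.

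Rpl36al, an autosomal paralog of the X-linked Rpl36a, was at 10.4, 15.2, 7.43 and 8.82 CPM without stimulation, at 14.5, 13.3, 12.9 and 9.79 in YFP- and at 12.4, 22.5, 23.9 and 23.1 in YFP+ samples. Its YFP+ value in f2 lay among the unstimulated values and the other 3 above them. The difference was 0.97 ± 0.25 (adjusted p = 0.00397) in YFP+, called under all 16 other settings, and 0.31 ± 0.25 (adjusted p = 0.316) in YFP-. Rpl36a, at 237 to 350 CPM over the 12 samples, had differences of -0.07 ± 0.13 and 0.05 ± 0.13 and was not called. The count of Rpl36al is one of those made uncertain by an overlapping gene.

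Rpl22l1 was at 86.7, 97.5, 111 and 89.2 CPM without stimulation, at 113, 102, 105 and 122 in YFP- and at 109, 108, 136 and 133 in YFP+ samples. It rose by 0.34 ± 0.12 in YFP+ (adjusted p = 0.0291, kept in 8 of 16 other settings) with overlapping groups, and its difference in YFP- was 0.20 ± 0.12 (adjusted p = 0.192). Rpl22, the RNA-binding parent with a known part in lymphocyte development, was at 183 to 242 CPM without stimulation, at 185 to 237 in YFP- and at 145 to 211 in YFP+ samples, with differences of -0.04 ± 0.14 and -0.23 ± 0.14 that were not called. Among the other parents, Rpl7 rose in both comparisons, by 0.29 ± 0.08 (adjusted p = 0.00948) and 0.25 ± 0.08 (adjusted p = 0.0184), kept in 7 and 9 of 16 other settings. Rpl3 rose by 0.35 ± 0.11 in YFP- (adjusted p = 0.0122, kept in 8 of 16) and was not called in YFP+ (0.15 ± 0.11, adjusted p = 0.245). Of the 6 tested paralogs on the list, with Rps4l, which the table calls a pseudogene and which is no member, 3 rose in YFP- with Rps4l among them and 5 in YFP+, while 2 of 9 parents rose in YFP-, and 1 rose and 1 fell in YFP+. Among all tested genes 30.2% were higher and 20.9% lower in YFP-, and 27.5% and 33.3% in YFP+. Whether paralogs and parents differ in their change was not tested.

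**Figure D3:**
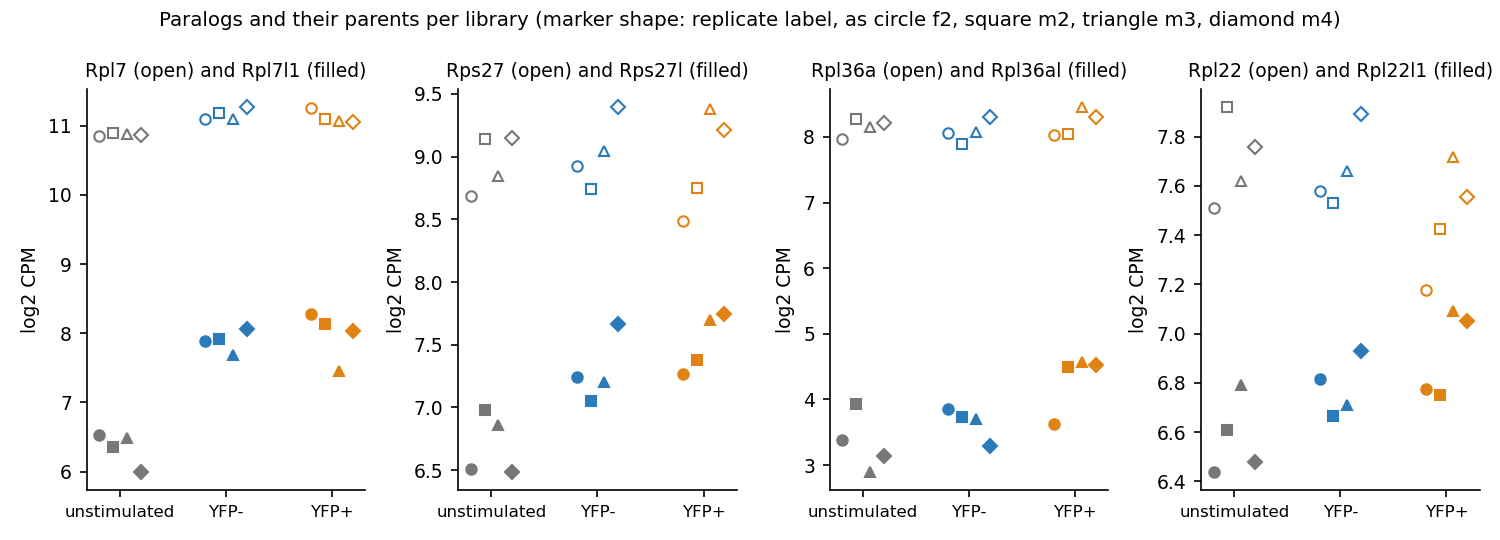
Log2 CPM of 4 paralogs (filled) and their parents (open) in each of the 12 libraries, with marker shapes for the replicate labels and an axis of its own for each pair. The filled points of Rpl7l1 and Rps27l are higher in all 8 stimulated libraries than in the 4 unstimulated ones, and the points of Rps27, Rpl36a and Rpl22 overlap between groups.

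The comparison of YFP+ with YFP- cells asks what differs between stimulated cells by reporter state. In limma 0 of 83 members were called, where 21.8% of all genes were called, 3.28% higher and 18.5% lower, and 3 members had an unadjusted p under 0.05. The member median was 0.05 and that of all genes -0.19. Totals without rRNA-like features also gave 0 (25.3% of all genes), and trimmed-mean scaling gave 7 higher and 0 lower (23.4% of all genes) and a member median of 0.27. Voom weights gave 10 higher and 0 lower (24.1% of all genes, 1425 higher and 1557 lower). The largest difference on deposited values was that of Rpl36al at 0.66 ± 0.25 (adjusted p = 0.076), and the other members lay between -0.21 (Rpl3) and 0.33 (Rpl41). Rpl5 differed by 0.18 ± 0.09 (adjusted p = 0.181).

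**Figure D4:**
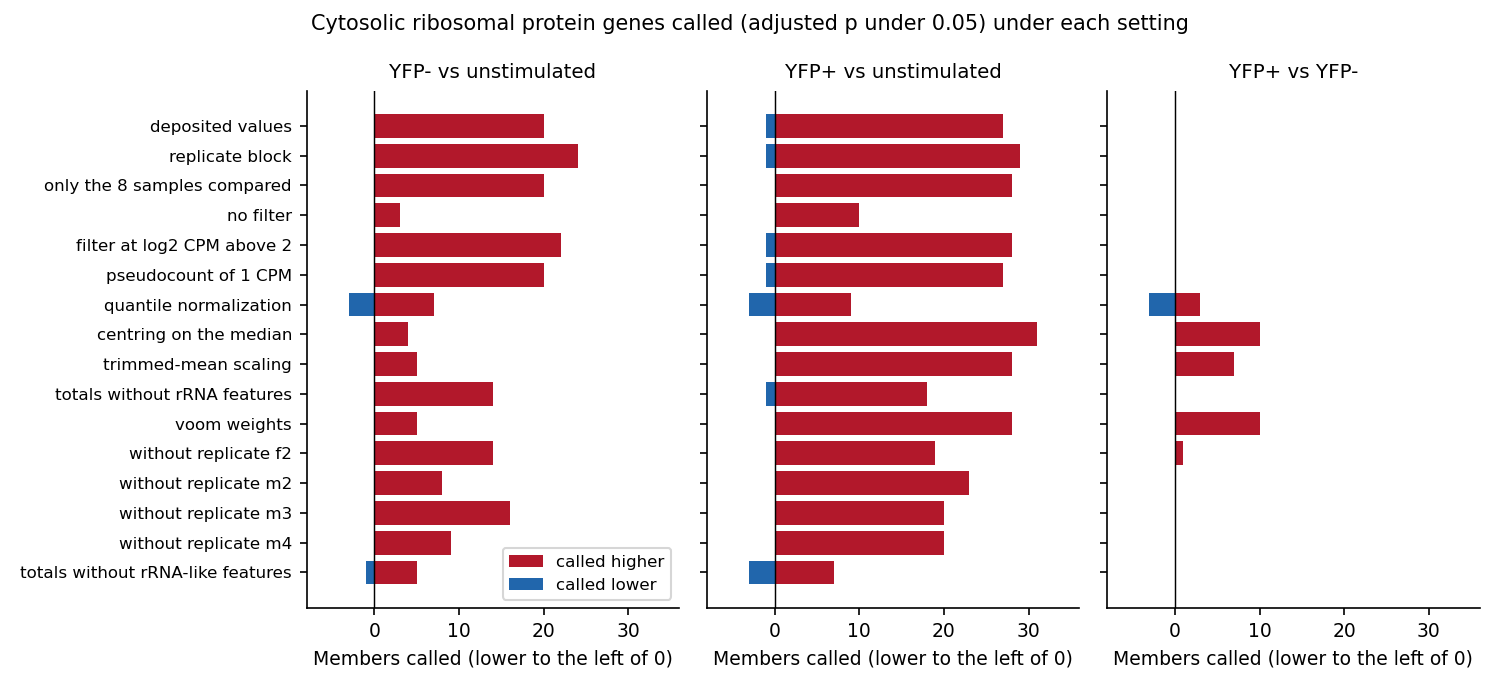
Number of members called higher (right of 0) and lower (left of 0) in each comparison, for the deposited values and the other fits. The fit with totals over the members is not drawn. Counts in YFP- against unstimulated cells run from 3 to 24, and in YFP+ against YFP- cells calls appear under quantile normalization, centring, trimmed-mean scaling, voom weights and without f2.

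Scaling each library to its own sum over the members, a setting chosen after seeing the data, describes the make-up of the set. It makes the members' total equal in every library, so rises of some members are offset by falls of others. Higher and lower are therefore relative to the set here. On deposited values 0 members fell in YFP- and 1 in YFP+. Against unstimulated cells, 4 members were higher and 5 lower in YFP- (46.8% of all genes called on this scale), and 10 higher and 8 lower in YFP+ (58.9%). In YFP- the higher ones were Rpl7l1, Rps19bp1, Rpl5 and Rps27l, and the lower ones Rps29 (-0.45), Rpl39 (-0.35), Rps20 (-0.32), Rpl28 (-0.26) and Rplp1 (-0.25). In YFP+ the lower ones included Rpl22 (-0.41), Rpl10 (-0.40) and Rpl39 (-0.32), and the higher ones Rpl36al (0.80) and Rpl4 (0.36), all named here after their values were seen. Between YFP+ and YFP- samples 0 members were called on this scale (18.2% of all genes).

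Calls were counted by transcript length. Among the 77 members without paralogs and name matches, 0 of the 25 shortest (271 to 577 bases) rose in YFP-, 8 of 27 in the middle and 9 of the 25 longest (878 to 3706 bases), where 30.2% of all tested genes were higher. In YFP+ the counts were 4, 8 and 10, with 1 that fell in the middle class, where 27.5% of all tested genes were higher. Spearman's rho of the log2 difference with transcript length across these genes was 0.46 in YFP-, 0.22 in YFP+ and -0.24 between YFP+ and YFP-, and -0.01, -0.05 and -0.12 across 12357 genes. With the mean log2 CPM in place of length, rho was 0.33, 0.03 and -0.41 for the 77 members. Across the 12357 genes it was 0.14, 0.17 and 0.13. Genes share libraries and are not independent replicates, so these are descriptions. Members with a run of at least 8 pyrimidines had a median difference of 0.15 in YFP- and 0.17 in YFP+ (51 members), and those without it 0.22 and 0.12 (12 members). These are all tested members with a promoter entry, paralogs and name matches included. Rpl7l1 and Rps19bp1, which had the largest rises, were among the 12.

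All 39 ribosome biogenesis factors on a list of nucleolar assembly genes rose in both comparisons with unstimulated cells, with medians of 1.80 and 1.92. Of all tested genes, 30.2% were higher in YFP- and 27.5% in YFP+. With totals without rRNA-like features all 39 rose as well, with medians of 1.61 and 1.73. Npm1, a nucleolar chaperone, rose from 1166 ± 93.5 CPM (SD, n = 4) without stimulation to 1705 ± 229 for YFP- and 2369 ± 245 for YFP+ samples, by 0.54 ± 0.12 (adjusted p = 0.00161) and 1.02 ± 0.12 (adjusted p = 4.65e-06). Nop16 rose by 2.07 ± 0.16 and 2.43 ± 0.16, and Polr1b, a subunit of RNA polymerase I, by 1.87 ± 0.14 and 2.04 ± 0.14. Of 6 tested chaperones that escort single ribosomal proteins, 6 rose in each comparison, among them Grwd1 by 2.12 ± 0.18 and 2.29 ± 0.18, Bccip by 1.39 ± 0.12 and 1.63 ± 0.12 and Tsr2 by 2.02 ± 0.16 and 2.33 ± 0.16. Pdcd2 was listed at 0 reads in all 12 libraries. Between YFP+ and YFP- samples 4 of 39 assembly factors were higher and 0 lower, where 3.28% of all tested genes were higher and 18.5% lower. Npm1 was higher by 0.48 ± 0.12 (adjusted p = 0.0094), kept in 13 of 16 other settings.

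Of 77 tested mitochondrial ribosomal protein genes, 40 rose and 5 fell in YFP- and 48 rose and 5 fell in YFP+, with medians of 0.36 and 0.47. Among all tested genes 30.2% were higher and 20.9% lower in YFP-, and 27.5% and 33.3% in YFP+. Totals without rRNA-like features gave 35 mitochondrial ones higher and 7 lower in YFP-, and 38 and 12 in YFP+. The medians were then 0.18 and 0.28. Initiation factors numbered 34 higher and 1 lower of 47 in each comparison, with medians of 0.76 and 0.69. With totals without rRNA-like features they numbered 30 higher and 3 lower in YFP-, and 30 and 4 in YFP+. Among 17 elongation factors and other genes with a TOP motif, 12 rose in YFP- and 10 in YFP+ and 0 fell, with medians of 0.46 and 0.42. With totals without rRNA-like features 8 rose and 2 fell in YFP-, and 6 rose and 1 fell in YFP+. Of the 17, Eef1b2 rose by 0.37 ± 0.09 and 0.46 ± 0.09, Tpt1 by 0.52 ± 0.09 and 0.41 ± 0.09 and Naca by 0.47 ± 0.09 and 0.55 ± 0.09. The calls were kept in 10 and 15 of 16 other settings for Eef1b2, 16 and 15 for Tpt1 and 16 and 16 for Naca. Pabpc1 was at -0.26 ± 0.11 and -0.27 ± 0.11 and was not called on deposited values. It was called in 7 and 5 of 16 other settings. Among ribosomal proteins outside the name rule, Rack1, a scaffold on the small subunit, rose by 0.44 ± 0.09 (adjusted p = 0.00124) and 0.57 ± 0.09 (adjusted p = 9.31e-05), whereas Fau (0.17 ± 0.15 and 0.13 ± 0.15) was not called.

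**Figure D5:**
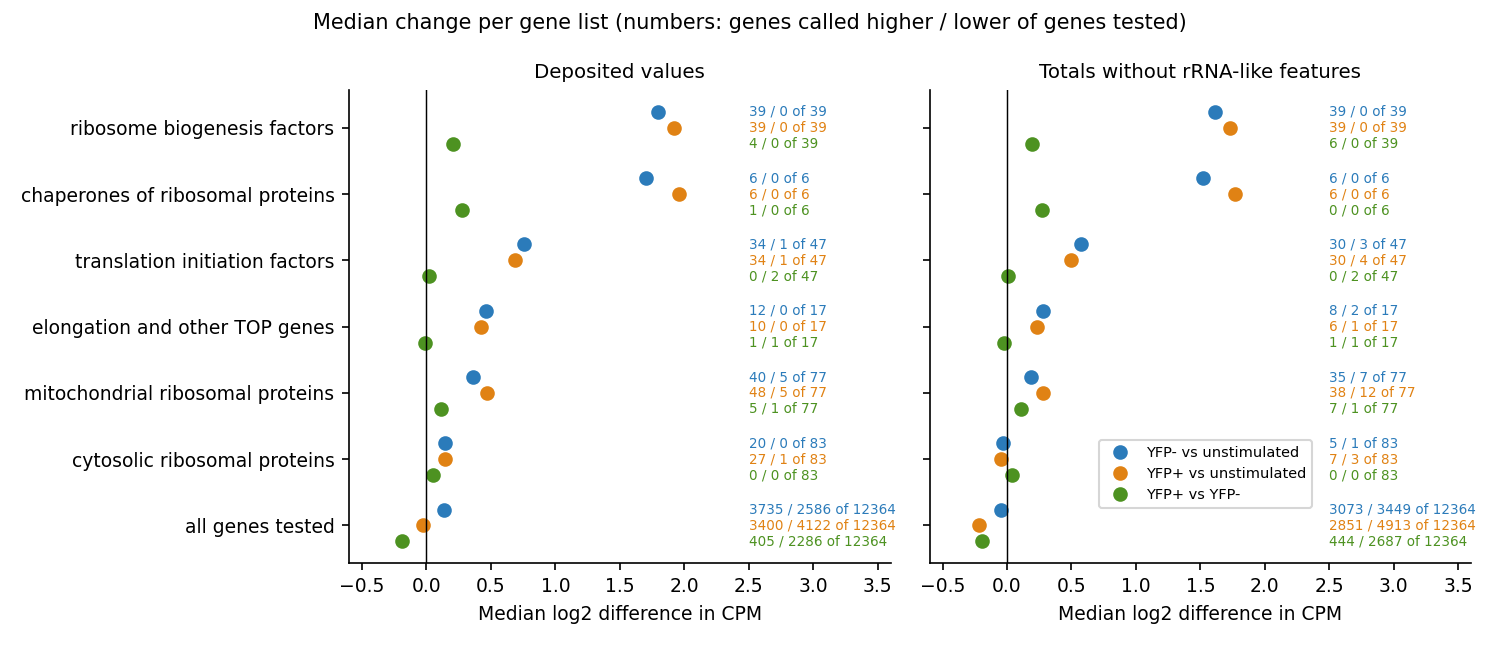
Median log2 difference in CPM of each gene list in the 3 comparisons, with genes called higher and lower of those tested printed at the right. The left panel uses the deposited values and the right panel totals without rRNA-like features. The cytosolic ribosomal protein genes lie between -0.04 and 0.15 and the assembly factors at 1.61 or more against unstimulated cells in both panels.

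Of 14 tested regulators of ribosomal protein synthesis, 10 rose and 1 fell in YFP-, and 8 rose and 2 fell in YFP+. Among all tested genes 30.2% were higher and 20.9% lower in YFP-, and 27.5% and 33.3% in YFP+. Totals without rRNA-like features gave 9 regulators higher and 2 lower in YFP-, and 7 and 3 in YFP+. Myc, a transcription factor that drives ribosome production, rose by 2.28 ± 0.33 (adjusted p = 7.4e-05) and 1.51 ± 0.33 (adjusted p = 0.0012). Larp1, which binds TOP mRNAs, rose by 0.66 ± 0.15 and 0.95 ± 0.15, and Rheb, the activator of mTOR, by 1.48 ± 0.11 and 1.84 ± 0.11. The translation inhibitors Eif4ebp1 and Eif4ebp2 moved in opposite directions. Eif4ebp1 rose by 1.80 ± 0.11 and 2.27 ± 0.11, and Eif4ebp2 fell by 0.64 ± 0.11 and 1.18 ± 0.11 on the log2 scale. Between YFP+ and YFP- samples Eif4ebp1 was higher by 0.47 ± 0.11 (adjusted p = 0.00639) and Eif4ebp2 fell by 0.55 ± 0.11 on the log2 scale (adjusted p = 0.00333).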

How the data were processed

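Per the file headers, the 12 samples share 1 table, deposited by the authors as moderated log2 CPM, with Ensembl identifiers, symbols and biotypes. The submitters' processing notes name STAR 2.7.9a, featureCounts 2.0.3 and the build GRCm38. Per the labels' protocols, cDNA was made from 10 ng of RNA with the SMARTer Ultra Low kit, sonicated and read as paired ends of 150 bases. Of 55774 lines, 287 repeated another and were dropped. There were 0 per-sample columns of no sample. The deposited values, on a log2 scale, gave whole reads for 100% of values (tolerance 0.001 reads), with a prior of 0.5 reads.

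Genes reaching a log2 CPM above 0 in 4 or more samples were fitted in limma 3.58.1 (R 4.3.3) with 1 coefficient per group over all 12 samples and eBayes with a trend, and called at a Benjamini-Hochberg adjusted p under 0.05 over all 12364 genes. Log2 differences are on the moderated scale, which understates low genes. The script was tested on simulated data. The main transcript and exon overlaps came from GENCODE M21 on GRCm38, which held 99.53% of identifiers, and start windows from RefSeq on GRCm38.p6. Paralogs were aligned with biopython 1.88. Tables and figures were made in Python 3.11.15 with pandas 2.3.3, numpy 2.4.6 and matplotlib 3.10.9.

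The members and lists were chosen with earlier results of these data known. Named are, per comparison, the 5 largest rises and falls among called members, the lists of paralogs, parents, name matches, acidic stalk and 5S particle, the 5 highest and lowest levels per length, and genes of the other lists. Alternatives covered the replicate block, the samples fitted, filters, a pseudocount of 1 CPM, scalings, voom weights, a fold threshold of 0.5 in log2 and leaving out each replicate label. Totals without rRNA-like features and over the members were added after seeing the data. Single-gene results of some genes counted in the lists are not reported here.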

Additional observations from a re-analysis of the deposited data

Results flagged for a closer look

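Among 69 sets of 4 values, namely the named members and 5 library measures in each group, 6 had 1 library farther from the rest than Dixon's 95% limit for 4 values allows (its gap to the nearest other over the whole range), and chance gives about 3.45, or 5%. The share of library reads on the members in YFP- samples was flagged at 0.871, because m4 stood at 11.7% and the others at 9.76 to 10.0%. Rpl11 was flagged in YFP- samples at 0.846, with m4 at 10.01 on the log2 CPM scale and the others at 9.66 to 9.72. It was also flagged in unstimulated samples at 0.862, with f2 at 9.52 and the others at 9.70 to 9.72. Rplp1 in unstimulated samples had f2 at 9.86 and the others at 10.00 to 10.03, a ratio of 0.865. Rplp2 in YFP+ samples had m3 at 9.74 and the others at 9.34 to 9.39, a ratio of 0.883. Rpl36al in YFP+ samples had f2 at 3.63 and the others at 4.50 to 4.58, a ratio of 0.913.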

How the results depend on the processing

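Counts of called members depended on the scaling of libraries, the filter and the threshold. In YFP- against unstimulated cells (20 on deposited values), 3 were called without a filter, 10 under quantile normalization (7 higher, 3 lower), 4 under centring, 5 under trimmed-mean scaling, 5 with voom weights, 6 with totals without rRNA-like features and 9 with totals over the members. All genes called in the same order were 5183 (of 55487), 6725, 6564, 6578, 6723, 6522 and 5792 (of 12364), against 6321. Adding a log2 threshold of 0.5 left 4 members and 5709 genes. In YFP+ against unstimulated cells (28), the counts were 10 without a filter, 12 under quantile normalization (9 higher, 3 lower), 10 with totals without rRNA-like features, 18 with totals over the members and 8 with the log2 threshold, with 7345, 7852, 7764, 7284 and 6964 of all genes, against 7522. In YFP+ against YFP- cells (0), they were 6 under quantile normalization, 10 under centring, 7 under trimmed-mean scaling and 10 with voom weights, with 2593, 2996, 2891 and 2982 of all genes. The cause was not tested. Changed totals, centring and trimmed-mean scaling shift whole libraries. Quantile normalization does more than that, while dropping the filter or adding the threshold leaves the values as they are. The median of all genes in YFP- against unstimulated cells went from 0.14 to -0.05 with totals without rRNA-like features. In YFP+ against YFP- it went from -0.19 to 0.07 under centring. The share of higher genes among all called was 15.1% on deposited values and 50.2% under centring in the latter comparison, and 45.2% and 36.7% (rRNA-like features left out) in YFP+ against unstimulated. The member median reversed to -0.032 under quantile normalization and -0.034 without rRNA-like features in YFP-, and to -0.043 without them in YFP+ against unstimulated. It was 0.31 under centring and 0.27 under trimmed-mean scaling in YFP+ against YFP-. The members' share of reads (1.21 and 1.17 percentage points higher in YFP- and YFP+) became -0.0076 and -0.103 without rRNA-like features. Over reads outside rRNA genes alone it was 1.06 in YFP- and 0.727 in YFP+, and over protein-coding reads 0.692 and 0.447. The YFP+ minus YFP- share of -0.0452 turned to 0.0541 with pseudogenes added.

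Leaving out each replicate label gave 8 to 16 called members in YFP- (8 without m2, 9 without m4), 19 to 23 in YFP+ against unstimulated and 0 to 1 between YFP+ and YFP- (1 without f2). The medians ran from 0.084 to 0.20, 0.11 to 0.21 and -0.032 to 0.092 (-0.032 without m3), and the share differences from 0.855 to 1.48, 1.0 to 1.42 and -0.287 to 0.337 percentage points (0.337 without m4). Calls over all genes then ran from 4717 to 6153, 6464 to 7399 and 1571 to 2178. Between YFP+ and YFP- they were 2691 on deposited values, 1583 without a filter, 1571 without m2 and 1643 without m4. With a block for the replicate label, 24, 30 and 0 members were called. Correlations of equal labels ran from -0.059 to 0.10, -0.042 to 0.38 and 0.054 to 0.37 in the 3 comparisons, and 1, 2 and 3 of 4 labels correlated best with their own. They do not settle whether equal labels pair samples. Between YFP+ and YFP-, where every value was above 0, a pairing is possible. The main fit left the block out because no label ties equal names to the same mouse.

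Of 80 results on single genes, 33 kept direction and call under every alternative. Values reversed in 20, and 0 of these genes were called on deposited values in that comparison. Against unstimulated cells in YFP-, Rpl11 was at -0.0096 (quantile), -0.029 (centring), -0.031 (trimmed mean), -0.032 (voom), -0.072 (no rRNA-like) and -0.067 (member totals), Rps27 at -0.096, -0.066, -0.068, -0.068, -0.11 and -0.10 in the same order, and Rpl22l1 at -0.061 (quantile). Fau was at -0.011 (no rRNA-like) and -0.0055 (member totals). With each replicate label left out in turn, the values ran from -0.051 to 0.0070 for Rpl10, -0.094 to 0.080 for Rpl22, -0.13 to 0.035 for Rpl36a, -0.099 to 0.030 for Rplp2 and -0.24 to 0.29 for Rps27rt. In YFP+, values without rRNA-like features and with member totals were -0.061 and -0.044 for Fau, -0.11 and -0.097 for Rpl11, -0.044 and -0.027 for Rpl3, -0.14 and -0.12 for Rpl36a, -0.030 and -0.013 for Rplp0, -0.19 and -0.17 for Rps27, and -0.11 and -0.091 for Rps27rt. Quantile normalization gave -0.013 for Rpl3, -0.14 for Rpl36a, -0.011 for Rplp0, -0.16 for Rps27 and -0.092 for Rps27rt, and totals without rRNA genes gave -0.0045 for Rpl11, -0.026 for Rpl36a and -0.079 for Rps27. Rplp1 was at 0.082 (centring), 0.037 (trimmed mean) and 0.034 (voom), and under centring Rplp2 was at 0.023. Leaving out each label gave -0.030 to 0.15 for Rpl36a, -0.12 to 0.018 for Rplp1, -0.18 to 0.13 for Rps27 and -0.23 to 0.34 for Rps27rt. Between YFP+ and YFP-, Rpl10 was at 0.062 (centring), 0.019 (trimmed mean) and 0.019 (voom), and Rpl7l1 ran from -0.011 to 0.20 without each label. At these depths 3 reads are at most 0.0933 CPM, below the level of each tested member in each library.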
